A study of Homo sapiens with 12 samples.

Results

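The response of BRG1-expressing SW13 cells to ultraviolet light was examined over all genes, falls as well as rises. SW13 is a human cell line from a small cell carcinoma of the adrenal cortex that lacks BRG1, the ATPase of the SWI/SNF chromatin remodelling complex encoded by SMARCA4. The cells compared were 1 stable line, SW13+BRG1, which carries the pREP7 vector with BRG1 isoform C. Members were taken by label: the 3 arrays of SW13+BRG1 cells given UV at 10 J/m2 and the 3 arrays of the same line mock treated, 6 of the 12 arrays of the series. RNA was collected 6 h after either treatment. The other 6 arrays hold SW13+vector, 1 stable line with the empty pREP7 vector, 3 mock treated and 3 irradiated in the same way, and serve here for comparison and in the shared estimate of the spread. The arrays of a group repeat 1 line, so the p-values below measure the spread between repeat arrays within the groups, pooled over both lines. They do not measure a spread between independent lines. A difference between the lines cannot be told apart from other differences between these lines.

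UV light joins neighbouring pyrimidines in DNA into dimers and photoproducts that stop RNA polymerase II on the transcribed strand until nucleotide excision repair removes them. Cells answer with stress kinase signalling, which acts through AP-1 and ATF factors on quickly transcribed genes, and with p53 and its targets, which hold the cell cycle or start apoptosis. The level of an RNA depends on its decay as well, and a message with a short life is lost soon after its synthesis stops.

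Each array gave a linear signal for 54675 probe sets, scaled by the authors to 1 target, and the medians of the SW13+BRG1 arrays lay between 21.05 and 25.29. After a filter on dim signals 32622 probe sets were tested, and 13834 genes were each read from the brightest of their probe sets. The SMARCA4 probe sets do not check the labels, because whether the introduced cDNA holds the stretches they read is not given, and the groups are called by their labels. Of the 7 tested, 2 had a higher mean on the SW13+BRG1 mock arrays than on the SW13+vector mock arrays. The brightest stood at 213.1 against 539.1, the reverse of the order the labels would give. The paper shows BRG1 protein in SW13+BRG1 cells by Western blot. UV moved none of the 7 SMARCA4 probe sets past the threshold in SW13+BRG1 cells by limma, and 0 of them had an unadjusted p under 0.05. Of 13 adrenal cortex markers with a probe set, 2, FDX1 and SCARB1, lay above the array median on all 6 SW13+BRG1 arrays, and the steroidogenic markers NR5A1, STAR, CYP11A1 and CYP17A1 did not. The summed signal of those markers ran from 1122 to 1245 on the mock arrays and from 1020 to 1220 on the UV arrays. The summed signal of blood cell markers ran from 129 to 175 on mock arrays and from 198 to 211 on UV arrays, with 1 marker above the median on all 6 arrays and none called, and its part in the results was not tested. By limma 0 genes were called after UV among the tested adrenal (5), epithelial (6), mesenchymal (12), blood (6), endothelial (5) and neuronal (9) markers, and at an unadjusted p under 0.05 the counts either way were 1, 2, 2, 1, 0 and 0. In a bulk extract, fewer cells of a kind and less RNA per cell cannot be told apart.

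Falls outnumbered rises. With calls made where the adjusted p was under 0.05 and the change exceeded 2-fold (a log2 difference over 1), 904 genes were lower after UV, 6.53% of those tested, and 84 were higher, 0.607%. Of single probe sets 1895 were lower (5.81%) and 183 higher (0.561%). The counts were 317 lower and 45 higher at a fold over 3, and 157 lower and 28 higher at a fold over 4. The median log2 difference over all tested genes was 0.03, with a 1st percentile of -2.16 and a 99th percentile of 1.70. The 3 UV signals all lay below the 3 mock signals for 893 of the 904 genes, and above them for 83 of the 84. A call on size and spread leaves little room for overlap. Over all tested genes, 19.9% lay below without overlap and 17.2% above. The 18 spiked hybridization controls had geometric means of 1094 to 1163 on the mock arrays and 1453 to 1493 on the UV arrays. Scaled by them, the median of all genes moved to -0.36 and the calls to 1897 lower and 34 higher. Scaling by the controls lowers every group median below by the same 0.39, so each is to be read against the median of all genes on the same scale.

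**Figure D1:**
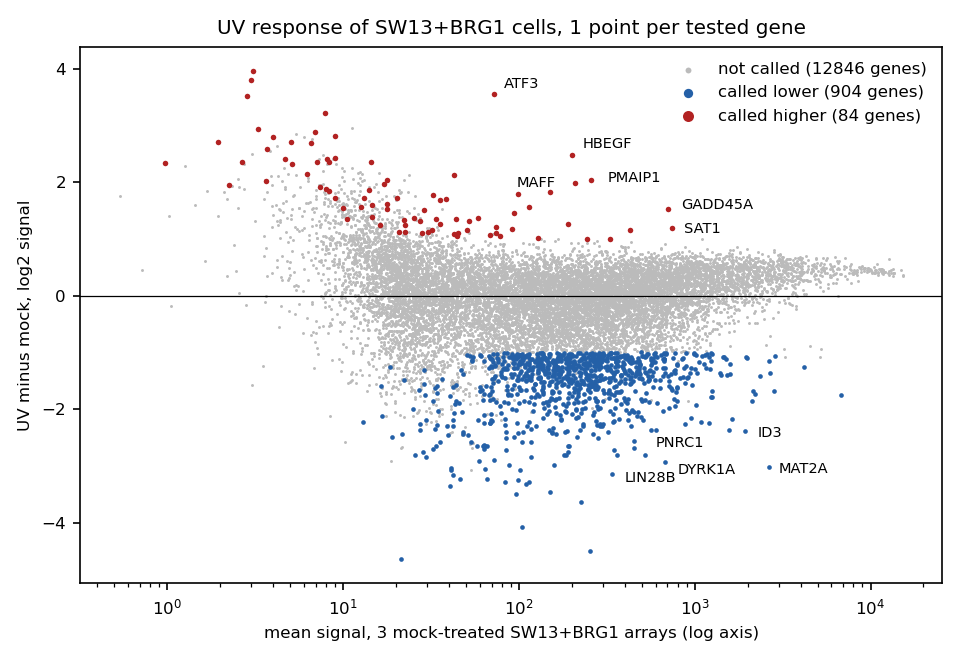
UV minus mock in log2 signal (vertical axis) against the mean signal of the 3 mock-treated SW13+BRG1 arrays (horizontal, log axis), 1 point per tested gene. Blue points are the 904 genes called lower and red points the 84 called higher. The falls lie at middle and high signals, and most rises lie at low ones.

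Where the falls lay depended on the starting signal, which for a probe set reflects its own brightness as well as the RNA. The 84 genes that rose had a median mock signal of 21.6, near the array median, against 206 for the 904 that fell and 152 over all tested genes. Sorted into deciles by mock signal, 0.217% of the dimmest decile and 12.2% of the sixth decile were lower, and 2.96% of the brightest. In the dimmest decile 2.89% were higher, and in the brightest 0. The bins use the mock signal that is also part of the difference, and the dimmest decile had a median mock signal of 13.5, under the array medians, so that genes could enter it through the arrays on which they are higher. Its rises are a description. With vector 0.795% of it were higher, and its median was 0.14 against 0.63 with BRG1. The brightest decile had a median log2 difference of 0.34, or -0.05 when scaled by the hybridization controls. Rises in dim genes rest on mock signals near background, where a fold is poorly measured.

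The rises that stood clear of background were few and included stress transcription factors, a growth factor and damage response genes. Only 9 genes were called higher, had no overlap of arrays and reached a group mean of 478.7, the 75th percentile of tested genes. ATF3, a stress-induced repressor of the ATF/CREB family, gave signals of 60.2, 51.2 and 105 on the mock arrays and 761, 791 and 864 on the UV arrays. All 3 UV arrays lay far above all 3 mock arrays, a log2 rise of 3.55 (SE 0.30, n = 3 arrays a group, limma adjusted p = 1.18e-05). It was the largest rise of the 9, and 2 of its 3 tested probe sets were called. HBEGF, a ligand of the epidermal growth factor receptor shed from the cell surface, went from 159, 157 and 289 to 1075, 1180 and 995. The groups did not overlap and the log2 rise was 2.48 (SE 0.22, limma adjusted p = 1.42e-05). MAFF, a small MAF protein that pairs with larger leucine zipper factors, went from 185, 203 and 237 to 907, 905 and 664. Its log2 rise was 1.98 (SE 0.16, limma adjusted p = 7.24e-06), again without overlap.

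**Figure D2:**
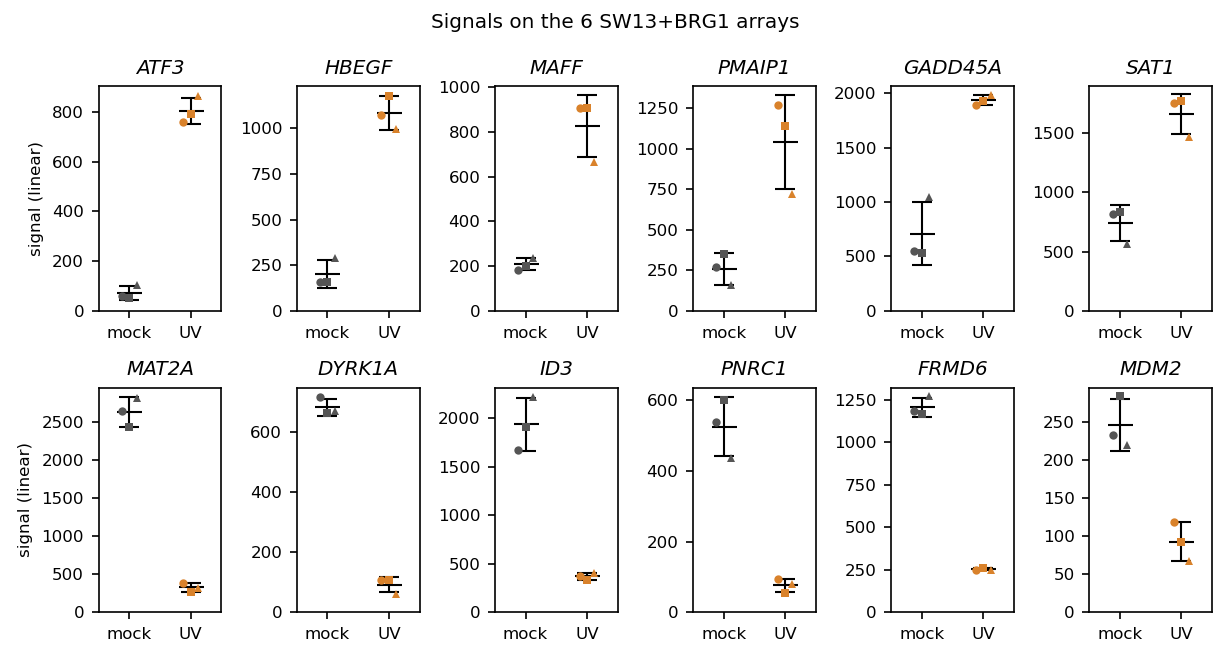
Signal on each array (vertical axes, linear) for 6 genes called higher (upper row) and 6 called lower (lower row), in SW13+BRG1 cells mock treated or given UV. Points are single arrays (circle array 1, square array 2, triangle array 3) and bars show the mean with its SD over 3 arrays. For ATF3 and HBEGF all UV points lie above all mock points, and for MAT2A and PNRC1 all lie below.

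Immediate early genes moved in both directions. Of 33 tested immediate early and AP-1 genes, 5 were higher and 5 lower (15.2% each way, beside 0.607% and 6.53% of all genes). Their median log2 difference was 0.01 beside 0.03 for all genes. By the hybridization controls 4 were higher and 8 lower (median -0.39), so the even split depends on the scaling. FOSB, an AP-1 subunit, was at 2.53, 3.90 and 2.84 on the mock arrays, well under the array median, and at 31.9, 53.7 and 60.3 after UV. The log2 difference was 3.95 (SE 0.68, limma adjusted p = 0.00135) from a start at background, and as small as 1.64 under an alternative. NR4A2, an orphan nuclear receptor, went from 47.7, 59.3 and 22.0 to 229, 226 and 101 (log2 rise 2.13, SE 0.49). JUN, which encodes the main AP-1 partner, went the other way, from 3075, 3231 and 2144 to 1040, 818 and 762. Its groups did not overlap, and the log2 difference was -1.68 (SE 0.16, limma adjusted p = 2.81e-05). IER3, an early response gene that affects cell survival, fell from 808, 825 and 1006 to 296, 333 and 279. CCN1, a secreted matrix protein induced by serum and YAP, fell by 1.74 on the log2 scale. EGR1, a zinc finger factor of the same class, gave 857, 644 and 2616 on the mock arrays and 982, 1163 and 961 on the UV arrays. The groups overlapped, mock array 3 stood apart from the other two, and the log2 difference of -0.13 (adjusted p = 0.863) became 0.47 without that array.

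Upstream sequence is shown for 4 of these and later genes because the factors that moved (ATF3, JUN, FOSB, MAFF) belong to families that bind the cAMP response element and the AP-1 site. Both strands of the 250 bases before the first listed RefSeq start were searched for TGACGTCA (cAMP response element) and TGANTCA (AP-1), which differ in length by 1 base and were counted separately. The stretches are MAFF chr22:38201744-38201993, CXCL8 chr4:73740319-73740568, PPM1D chr17:60599943-60600192 and ATF3 chr1:212565157-212565406, GRCh38.p14, plus strand, and capitals mark a match.
MAFF: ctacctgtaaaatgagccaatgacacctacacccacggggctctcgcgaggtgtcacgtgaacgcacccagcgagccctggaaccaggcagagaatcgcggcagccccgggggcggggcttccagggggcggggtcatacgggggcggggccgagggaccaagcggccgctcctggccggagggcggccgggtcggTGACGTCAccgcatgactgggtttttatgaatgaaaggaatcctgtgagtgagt
CXCL8: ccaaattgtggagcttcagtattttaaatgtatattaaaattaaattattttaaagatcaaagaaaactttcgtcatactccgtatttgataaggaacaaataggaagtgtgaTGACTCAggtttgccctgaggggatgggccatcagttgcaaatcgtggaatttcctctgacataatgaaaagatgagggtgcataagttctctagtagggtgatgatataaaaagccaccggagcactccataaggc
PPM1D: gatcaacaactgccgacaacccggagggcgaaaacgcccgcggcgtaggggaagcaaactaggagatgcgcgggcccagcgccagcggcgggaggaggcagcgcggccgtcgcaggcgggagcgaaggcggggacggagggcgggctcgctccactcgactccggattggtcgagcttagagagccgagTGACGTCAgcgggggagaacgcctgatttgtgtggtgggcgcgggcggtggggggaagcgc
ATF3: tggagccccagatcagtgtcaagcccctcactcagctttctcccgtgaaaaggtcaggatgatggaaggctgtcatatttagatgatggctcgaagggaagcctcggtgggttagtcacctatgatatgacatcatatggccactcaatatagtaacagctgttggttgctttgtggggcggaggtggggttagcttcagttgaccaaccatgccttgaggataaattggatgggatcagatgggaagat
MAFF, which rose, and PPM1D, which fell, both hold the cAMP response element, and CXCL8, which rose, holds the AP-1 letters. The ATF3 stretch holds neither, and neither do the stretches before a later listed start of MAFF and of ATF3. Among other genes searched, SKIL holds the cAMP response element, and JUN, FOS, FOSB, HBEGF, KLF2 and PNRC1 hold neither. A promoter was found for 66 of the 84 genes that rose, 767 of the 904 that fell and 11116 of all tested genes. The cAMP response element was in 3.03% of the risen (2 genes), 2.09% of the fallen and 2.83% of all promoters. The AP-1 letters were in 9.09% of the risen (6 genes), 2.74% of the fallen and 4.08% of all. These are matches of letters and not measured binding sites.

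Targets of p53 moved in both directions. Of 27 tested, 3 were higher (11.1%) and 4 lower (14.8%), beside 0.607% and 6.53% of all genes. Their median log2 difference was 0.23, or -0.16 by the hybridization controls. GADD45A, which binds PCNA and CDK1 and slows the cycle, went from 549, 532 and 1044 to 1891, 1931 and 1988 (log2 rise 1.52, SE 0.24, limma adjusted p = 0.000767). CDKN1A, the p21 inhibitor of cyclin-dependent kinases, went from 111, 66.6 and 165 to 280, 291 and 392 (log2 rise 1.57, SE 0.34, limma adjusted p = 0.00517). PMAIP1, which encodes the apoptosis activator NOXA, went from 270, 348 and 157 to 1267, 1136 and 718. Its groups did not overlap, and the log2 rise of 2.04 (SE 0.52) had an adjusted p of 0.0144 by limma. It fell short of the threshold without mock array 3 (log2 1.72), UV array 1 (1.88) or UV array 2 (1.96). Of the genes that restrain p53, PPM1D and MDM2 were lower. PPM1D, the WIP1 phosphatase that switches off the damage response, fell from 247, 244 and 204 to 58.0, 58.6 and 31.1 (log2 -2.29, SE 0.24, limma adjusted p = 4.38e-05), but its log2 difference was -1.0 and not called when averaged over its probe sets. MDM2, the ubiquitin ligase for p53, fell by 1.43 on the log2 scale (SE 0.26) on 1 of its 7 tested probe sets, and the average over them was -0.48 and not called. XPC and DDB2, damage sensors of excision repair that p53 can raise, had log2 differences of -0.25 (adjusted p = 0.585) and 0.28 (adjusted p = 0.403).

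Excision repair genes were called lower at the share of all genes, and no repair gene was called higher (0.607% of all genes were). Of 46 tested nucleotide excision repair genes 3 were lower (6.52%, beside 6.53% of all genes), and 10 in each direction had an unadjusted p under 0.05 by limma. At an adjusted p under 0.05 by limma and any fold, 7 were higher and 6 lower. The 3 were CDK7, a TFIIH kinase (log2 -1.11), the nuclease ERCC4 (-1.05) and the polymerase subunit POLD3 (-1.15). ERCC4 missed the threshold without mock array 1 (log2 -0.98), mock array 2 (-0.99) or UV array 3 (-0.83), and neither ERCC4 nor POLD3 was called after quantile normalization or as the average of their probe sets (-0.71 and -0.13). Of 47 checkpoint, break repair and Fanconi genes 6 were lower (12.8%, median -0.13, or -0.52 by the hybridization controls), among them PALB2, which brings BRCA2 to breaks (log2 -1.70).

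Among 47 G1/S and replication genes 5 were lower at 6 h (10.6%, beside 6.53% of all genes), and their median log2 difference was -0.13, or -0.53 by the hybridization controls. The lower ones included E2F3 and E2F8, a pair of E2F factors (log2 -2.51 and -1.78), and CDC25A, the phosphatase that activates cyclin-dependent kinases (log2 -2.58, limma adjusted p = 0.00764), whose UV signals of 11.7, 3.41 and 13.6 lay under the array median. With an offset of 16 CDC25A stood at -1.39, and the methods' unadjusted test did not call it. Among 47 G2/M and mitosis genes 2 were lower (4.26%), the mitotic kinase AURKA (log2 -1.29) and the CDK1 inhibitor WEE1 (log2 -1.33). The list's median was -0.33, or -0.72 by the hybridization controls, and 37 of the 47 were below 0. By limma 12 had an unadjusted p under 0.05 downward and 1 upward, so most of the falls stayed short of a call. AURKA missed the threshold without mock array 3 (log2 -0.99), and the number called lower was 6 without UV array 3. Outside these lists, FBXO5, the inhibitor of the anaphase-promoting complex also called EMI1, fell from 352, 305 and 456 to 126, 114 and 138 (log2 -1.54). SPDL1, which brings dynein to kinetochores, fell from 2225, 2219 and 2016 to 721, 639 and 649 (log2 -1.69). In both the 3 UV arrays lay below the 3 mock arrays. Among 7 inhibitors of cyclin-dependent kinases, CDKN1A rose and CDKN1B, which encodes p27, was lower (log2 -1.06, limma adjusted p = 0.00355). That is 14.3% each way, beside 0.607% and 6.53% of all genes. CDKN1B missed the threshold without mock array 2 (log2 -0.97) or UV array 3 (-0.95). Of 32 histone genes 1 was called, higher (3.12%, beside 0.607% of all genes), and the count was 0 without mock array 3 or without UV array 3.

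Of 24 NF-kB and inflammatory genes, 3 were higher (12.5%) and 2 lower (8.33%), beside 0.607% and 6.53% of all genes. NFKBIZ, a nuclear inhibitor-like cofactor of NF-kB, rose from 98.9, 100 and 84.3 to 284, 284 and 218 (log2 1.46, SE 0.16, limma adjusted p = 6.74e-05). CXCL8, the neutrophil chemokine interleukin-8, rose from 27.9, 42.9 and 45.5 to 124, 184 and 84.2 (log2 1.71, adjusted p = 0.0213), and missed the threshold without mock array 1 (log2 1.49), mock array 2 (1.80), UV array 1 (1.71) or UV array 2 (1.43). Among 32 apoptosis genes, PMAIP1 rose (3.12%) and 3 fell (9.38%). MCL1, an anti-apoptotic BCL2 relative with a short-lived message, fell from 1129, 1066 and 1303 to 479, 496 and 461 (log2 -1.28, SE 0.19, limma adjusted p = 0.000437), with an uncalled average of -1.09 over its probe sets. Without mock array 3 the list had 5 lower, and without mock array 3, UV array 1 or UV array 2 it had 0 higher.

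The falls included enzymes that write and erase chromatin marks. Of 79 tested histone modifiers and other chromatin enzymes 27 were lower (34.2%, beside 6.53% of all genes). Their median log2 difference was -0.72 beside 0.03 for all genes (-1.11 beside -0.36 by the hybridization controls). Their median gene length was 84.3 kb, beside 28.1 kb for all tested genes. TET3, which oxidizes methylcytosine, fell from 139, 153 and 153 to 30.2, 32.0 and 24.4 (log2 -2.37). SETD2, the methyltransferase for lysine 36 of histone H3, fell from 263, 224 and 146 to 58.6, 31.9 and 52.0 (log2 -2.15). EPC2, a subunit of the NuA4 acetyltransferase, had a log2 difference of -2.30. Of 26 SWI/SNF subunits 4 were lower (15.4%). ARID1A, the DNA-binding subunit of the BAF form, went from 1134, 1130 and 1002 to 285, 275 and 160 (log2 -2.23), with no overlap. ARID2, of the PBAF form, and BICRAL, of the non-canonical form, had log2 differences of -1.30 and -1.43. Of 76 RNA polymerase II, Mediator, TFIID and elongation genes 12 were lower (15.8%), although the list's median was -0.07 (-0.46 by the hybridization controls). CDK8, the Mediator kinase, fell from 242, 226 and 165 to 49.4, 63.7 and 46.1 (log2 -1.99), and CCNT2, a cyclin of the elongation kinase P-TEFb, by 2.04 on the log2 scale.

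Falls were also frequent among signalling genes. Of 34 Wnt pathway genes 11 were lower (32.4%, beside 6.53% of all genes) and none higher (beside 0.607%). By limma 0 had an unadjusted p under 0.05 upward, and the median was -0.61, or -1.01 by the hybridization controls. ZNRF3, a ligase that removes Wnt receptors, went from 46.6, 29.1 and 48.4 to signals of 3.98, 5.90 and 5.17, which lie at background, so its log2 difference of -3.03 (SE 0.40, limma adjusted p = 0.000259) was -1.43 with an offset or a floor. LRP6, a Wnt co-receptor, had a log2 difference of -2.65 and TCF7L2, the nuclear effector, one of -2.37. Of 40 TGF-beta, BMP and YAP genes 13 were lower (32.5%, median -0.68, or -1.07). ID3, a BMP target that blocks helix-loop-helix factors, fell from 1672, 1914 and 2221 to 372, 334 and 408 (log2 -2.38, SE 0.13, limma adjusted p = 6.27e-07). FRMD6, an upstream Hippo regulator, fell from 1184, 1164 and 1270 to 251, 262 and 249 (log2 -2.25, SE 0.13). Both had arrays that were tight within each group and far apart between them. SMAD6, an inhibitor of BMP signalling, went from 156, 167 and 152 to 6.3, 57.7 and 22.3. Its UV arrays differed several-fold among themselves, and the log2 difference was -2.98 (SE 0.55, adjusted p = 0.00207). Of 27 MAPK feedback genes 5 were lower (18.5%). SPRED2, a RAS pathway inhibitor, fell from 455, 405 and 492 to 87.7, 70.7 and 72.7 (log2 -2.55, SE 0.15), and its relative SPRED1 had a log2 difference of -2.26.

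RNA and protein turnover genes fell in part. Of 63 ubiquitin ligases and deubiquitinases 15 were lower (23.8%, median -0.46, or -0.85 by the hybridization controls), among them FBXW7, the F-box protein for cyclin E and MYC (log2 -2.39, SE 0.32). Of 40 mRNA decay and antiproliferative regulators 9 were lower (22.5%) and 1 higher (median -0.44, or -0.83), among them TNRC6A, the partner of Argonaute (log2 -1.88), and the deadenylase CNOT6L (log2 -1.81). Of 35 integrated stress and unfolded protein response genes 5 were lower (14.3%, beside 6.53% of all genes). EIF2AK3, the PERK kinase that senses misfolded protein, fell from 302, 293 and 246 to 60.9, 60.1 and 52.7 (log2 -2.27, SE 0.20, limma adjusted p = 1.41e-05), and CHAC1, a glutathione-degrading target of ATF4, had a log2 difference of -2.69 from a mean of 5.01 after UV, at background, and of -1.09 with a floor. Of 20 cholesterol synthesis genes 3 were lower (15%), among them INSIG1, the sterol-sensing brake on SREBP (log2 -1.65). Of 13 polyamine genes SAT1 was higher (7.69%) and 2 were lower (15.4%). Interferon-stimulated genes (30 tested), adhesion and matrix genes (36), NRF2 and antioxidant genes (22) and reference genes (14) had 1 lower each. Those shares were 3.33%, 2.78%, 4.55% and 7.14%.

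The largest fall among the 153 bright genes that fell without overlap was that of MAT2A, which makes S-adenosylmethionine, the methyl donor. Its signal went from 2647, 2440 and 2825 to 393, 275 and 323, a log2 difference of -3.01 (SE 0.20, limma adjusted p = 1.97e-06), and 1 of its 2 tested probe sets was called. Under an alternative the MAT2A difference was as small as -1.70, so its rank depends on the processing. PNRC1, a nuclear receptor coactivator, went from 538, 602 and 437 to 93.5, 55.7 and 79.3 (log2 -2.81, SE 0.25, limma adjusted p = 1.34e-05). LIN28B and IGF2BP3, oncofetal RNA-binding proteins, went from 373, 349 and 299 to 46.2, 32.9 and 37.7 for LIN28B (log2 -3.14, SE 0.16) and from 784, 761 and 436 to 170, 159 and 144 for IGF2BP3 (log2 -2.02, SE 0.22). None of these overlapped between the groups. DYRK1A, a dual-specificity kinase, fell from 714, 662 and 668 to 106, 108 and 62.5 (log2 -2.93), but only 1 of its 3 tested probe sets was called and its average over them was -1.18 (adjusted p = 0.0748).

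Housekeeping groups held no calls. None of 51 cytosolic ribosomal protein genes, 35 proteasome subunits, 66 respiratory chain subunits, 33 genes of glycolysis and the citrate cycle or 31 heat shock proteins was called in either direction by limma. At an unadjusted p under 0.05, 49 of the ribosomal, 25 of the proteasome, 60 of the respiratory, 17 of the glycolysis and 13 of the heat shock genes were higher. None was lower except 1 heat shock gene. At an adjusted p under 0.05 by limma and any fold, 48, 21, 56, 15 and 8 were higher, in the same order. These missed a call through the 2-fold limit, and none met both limits. The methods' unadjusted test with a ratio over 2 also called 0 in each. All 51 ribosomal and all 66 respiratory chain genes had log2 differences above 0, with medians of 0.45 and 0.55. The sign of these medians rests on the scaling of the arrays. By the hybridization controls the ribosomal median was 0.06, the proteasome median went from 0.44 to 0.05, and the respiratory median was 0.16. The glycolysis median went from 0.36 to -0.03 and the heat shock median from 0.26 to -0.13. The median of all genes went from 0.03 to -0.36, below each of these lists on both scales. After quantile normalization the ribosomal and heat shock medians (0.03 and -0.07) lay below that of all genes (0.09), and the others above it. GAPDH, the glycolytic enzyme often used as a reference, was at 9750, 9674 and 12251 on the mock arrays and 13088, 13272 and 15472 on the UV arrays (log2 0.41, or -0.027 after quantile normalization). Of 73 splicing factors 1 was higher and 1 lower (1.37% each way, beside 0.607% and 6.53% of all genes). The higher one was CLK1, a kinase of splicing factors, which went from 225, 193 and 156 to 415, 452 and 507 (log2 rise 1.27, or 0.88 and not called by the hybridization controls).

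**Figure D3:**
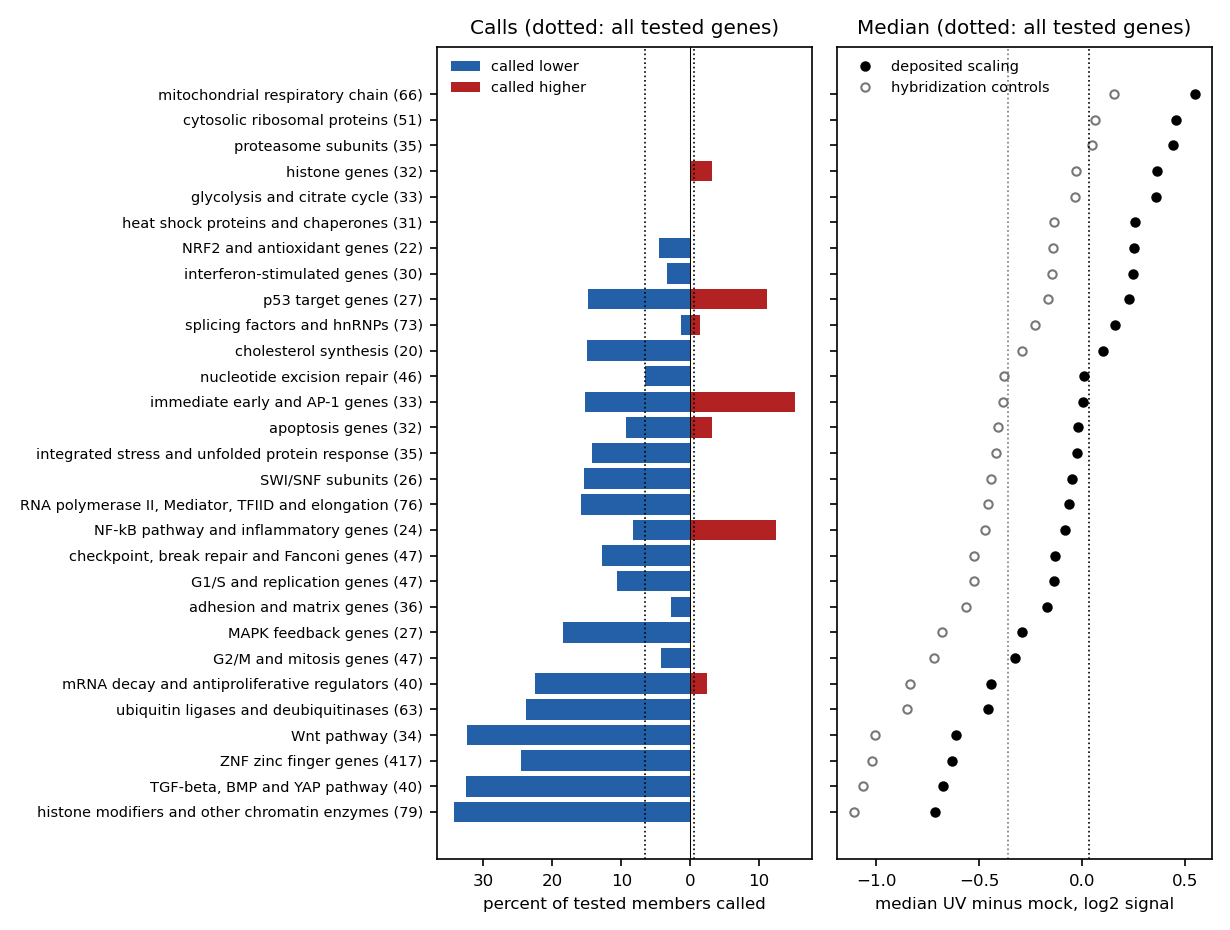
Gene lists in SW13+BRG1 cells after UV. The left panel shows the percent of tested members called lower (blue, to the left) or higher (red, to the right), and the right panel the median log2 difference with the deposited scaling (filled) and scaled by the hybridization controls (open), with dotted lines for all tested genes and the number tested in brackets. Histone modifiers, Wnt and TGF-beta lists have 32.4% to 34.2% of genes lower against 6.53% of all, and ribosomal and respiratory chain lists have none.

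Genes with a ZNF symbol, most of which encode zinc finger proteins that bind DNA, fell in large number. Of 417 tested ZNF genes 102 were lower (24.5%) and none was higher. All 102 lay without overlap of arrays, which the call nearly implies, as 893 of all 904 genes called lower did. Over all tested genes, called or not, 19.9% lay below without overlap. By limma 9 had an unadjusted p under 0.05 in the upward direction and 199 in the downward one. The median log2 difference of the family was -0.63, and 337 of 417 members were below 0. The other 12109 protein-coding genes had a median of 0.04 and 782 lower (6.46%). By the hybridization controls the ZNF median was -1.02, and the ZNF count was 181 lower, and after quantile normalization it was 65. ZNF217, a co-repressor subunit amplified in carcinomas, went from 1855, 1718 and 1304 to 492, 410 and 229 (log2 -2.17, SE 0.30, limma adjusted p = 0.000335). Further down the list, with names chosen after their values were seen, ZNF443 went from 240, 184 and 209 to 42.3, 52.8 and 61.7 (log2 -2.02, SE 0.19). ZNF92 went from 511, 539 and 280 to 165, 128 and 54.4 (log2 -2.02, SE 0.38, or -1.54 and not called as the average of its probe sets) and ZNF736 from 179, 187 and 122 to 63.1, 45.7 and 18.9 (log2 -2.07, SE 0.38). These 4 genes had the largest falls among the 40 of the 102 at or above the median mock signal of tested genes. In each of the 4 every UV array lay below every mock array. ZNF genes are of middle length, with a median of 23.0 kb beside 30.8 kb for the other protein-coding genes. Between 13.8 and 36.9 kb, the interquartile range of the family, 58 of 209 ZNF genes were lower (27.8%) against 148 of 3304 other protein-coding genes (4.48%). The starting signal was not matched: the median mock signal was 105.3 for ZNF genes and 186 for the other protein-coding genes. In the deciles of all genes with median mock signals of 73.3 and 122.2, 7.74% and 11.7% were lower. The part of the starting signal was not tested.

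Fallen genes were long. The median gene length on GRCh38.p14 was 59.7 kb for the 904 genes that fell, 7.19 kb for the 84 that rose and 28.1 kb for all tested genes. In the shortest decile of genes, up to 4.244 kb, 2.1% were lower and 1.88% higher. In the ninth decile, from 87.69 to 152.9 kb, 12.7% were lower and 0.0724% higher, and in the longest decile 10.3% were lower and 0.507% higher. The median log2 difference went from 0.34 in the shortest decile through 0.05 and 0.00 in the fifth and sixth to -0.23 and -0.19 in the ninth and the longest. By the hybridization controls these end values were -0.05, -0.63 and -0.58, so the gap between short and long genes stayed while its zero moved. The gap was present on each UV array: the longest decile less the shortest, relative to the mean of the mock arrays, was -0.48, -0.48 and -0.67, against 0.09, 0.04 and -0.12 on the single mock arrays. Among protein-coding genes alone 2.64% of the shortest and 12.9% of the ninth decile were lower, and among genes above the median mock signal 3.18% and 17.1%. Across 13816 genes the Spearman rank correlation between length and log2 difference was -0.30, which describes genes on shared arrays and not independent replicates.

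**Figure D4:**
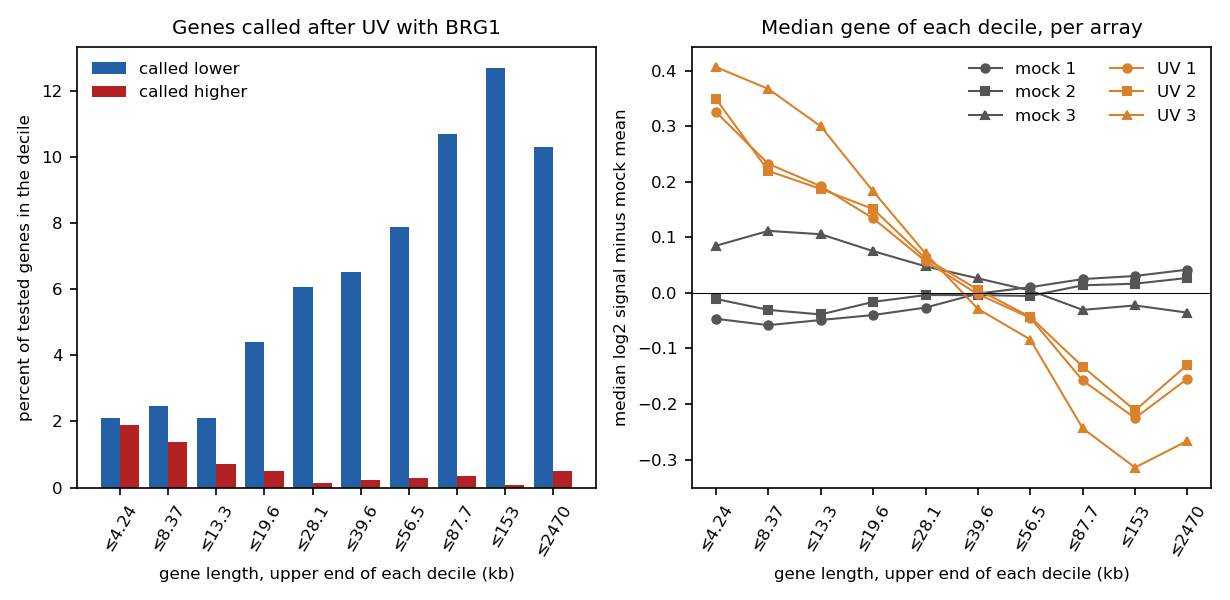
Tested genes sorted into deciles by length, shortest on the left, in SW13+BRG1 cells after UV. The left panel shows the percent called lower (blue) or higher (red), and the right panel the median gene of each length decile on each array as log2 signal minus the mock mean. The percent lower goes from 2.1% in the shortest decile to 12.7% in the ninth, and the UV lines slope down where the mock lines stay near 0.

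Some of the longest genes fell. AUTS2, a neurodevelopmental Polycomb cofactor of 1195 kb, went from 223, 180 and 272 to 55.5, 48.4 and 54.6 (log2 -2.07). ERBB4, a receptor that binds HBEGF and neuregulins and is 1163 kb long, went from 263, 317 and 180 to 82.2, 104 and 68.4 (log2 -1.56). Of 11 genes for the epidermal growth factor receptor family and its ligands 1, HBEGF, was higher and 1, ERBB4, lower. That is 9.09% each way, beside 0.607% and 6.53% of all genes. RPS6KC1, a kinase-like protein gene of 811.5 kb, had a log2 difference of -1.33. The 5 longest genes called higher, GPC6 (1191 kb), CNTN1, CIBAR1-DT, DYNC1I1 and PRR16 (330.3 kb), had no mock signal above 24.9. GPC6 went from 1.16, 2.41 and 2.24 to 25.1, 6.32 and 10.9. With an offset of 16 the log2 differences of the 5 were between 0.37 and 0.91 and none was called, and each lost its call without at least 1 array (for GPC6 UV array 1, with a log2 of 2.17). Of the Wnt members that fell the median length was 138.7 kb, and of the histone modifiers that fell 138.8 kb. Whole-list medians were 109.8 kb for ubiquitin ligases, 69.2 kb for TGF-beta and 61.9 kb for Wnt genes, beside 28.1 kb for all tested genes. The uncalled ribosomal and respiratory lists were short (5.035 and 10.55 kb). Adhesion and matrix genes (88.4 kb, 2.78% lower) and MAPK feedback genes (24.9 kb, 18.5% lower) were among lists that went the other way. The part of length in these lists was not tested. Short genes fell too: MAT2A, ID3 and PNRC1, named above, span 6.11, 1.58 and 4.41 kb.

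Among noncoding transcripts rises were more frequent than falls. Their starting signals were low, with a median mock signal of 28.1 for long noncoding RNA genes against 180.6 for protein-coding genes, and over all genes the next deciles after the dimmest (median signals 23.8 and 39.8) had 1.01% and 2.67% lower and 0.651% and 1.01% higher. The part of the starting signal was not tested. Of 1031 tested long noncoding RNA genes 21 were higher (2.04%) and 9 lower (0.873%), against 61 higher (0.488%) and 884 lower (7.07%) of 12496 protein-coding genes. Their median was 0.16, or -0.23 by the hybridization controls, beside -0.36 over all genes. Divergent transcripts, which start at a coding promoter and run away from the gene, carried 7 of the 21 rises, with 7 of 112 higher (6.25%) and none lower. By limma 4 of the 112 had an unadjusted p under 0.05 downward, and the methods' unadjusted test called 1. The other 5, among them DOCK9-DT, PAPOLA-DT and HNRNPD-DT, had mock means from 8.31 to 22.6, near or under the array median, so the filter could favour those that rose. PAXIP1-DT, named after its values were seen like the next, had mean signals of 74.6 before and 171.9 after UV (log2 1.21, limma adjusted p = 0.00177), and 0.82 without a call by the hybridization controls. TOLLIP-DT had mean signals of 28.9 and 77.7 (log2 1.51, limma adjusted p = 0.00726). LINC01003, a long intergenic RNA, went from 162, 167 and 120 to 589, 616 and 405 (log2 rise 1.83, SE 0.20, limma adjusted p = 7.12e-05). Whether reads of overlapping or antisense genes add to these probe sets was not tested.

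The vector line served to ask whether the response differed in SW13+BRG1 cells. As a measure of RNA quality, 3 prime over 5 prime control signals of GAPDH and ACTB were 1.64 and 2.57 on SW13+vector mock array 3. They were 0.976 and 1.33 on mock array 1 of that line and 0.986 and 1.21 on mock array 2. On the SW13+BRG1 arrays they ran from 0.932 to 1.12 and from 1.34 to 1.62. In SW13+vector 573 genes were lower (4.14%) and 91 higher (0.658%). Without its mock array 3 there were 561 lower and 118 higher. Of the 904 genes lower in SW13+BRG1, 372 were also lower in SW13+vector, which is 372 of its 573, and 881 had a log2 difference below 0 there. The medians over the 904 were -1.40 with BRG1 and -0.95 with vector, where the genes had been chosen by their fall with BRG1. Of the 84 higher genes 23 were also higher in the vector line, of its 91, and 69 had the same sign. The gap between short and long genes was present there as well, with a median log2 difference of 0.30 in the shortest decile and -0.28 and -0.24 in the ninth and the longest, and 0.869% and 11.6% lower in the shortest and ninth deciles. For ZNF genes the vector median was -0.33 and 30 were lower, 21 of them among the 102. The difference of the UV effect between the lines was called for 0 of 417 ZNF genes by limma, and 60 had an unadjusted p under 0.05 (756 of all 13834 genes did). The median difference was -0.31, with 317 of 417 below 0. Histone modifiers had 22 of 79 lower in the vector line and Wnt genes 9 of 34.

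**Figure D5:**
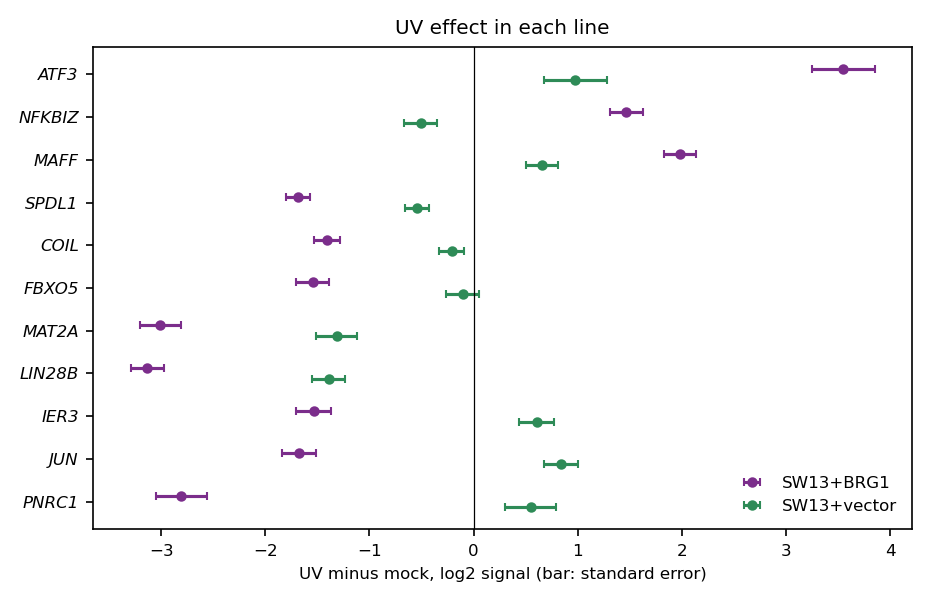
UV minus mock in log2 signal (horizontal axis, bars 1 SE) in SW13+BRG1 (purple) and SW13+vector cells (green), for the 11 genes called in SW13+BRG1 cells whose UV effect differed between the lines at an adjusted p under 0.05. JUN, IER3 and PNRC1 lie below 0 with BRG1 and above 0 with vector.

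The test of the difference itself, the interaction of UV with the line, passed an adjusted p of 0.05 for 13 genes: 4 with a more positive effect with BRG1 (0.0289%) and 9 with a more negative one (0.0651%). At an unadjusted p under 0.05 there were 756 of the 13834. With a term for the experiment number within each line, 14 positive and 64 negative differences passed the adjusted p. Of the 13, 11 were also called in SW13+BRG1 cells. PNRC1 gave the largest difference: mean signals were 65.8 and 98.7 without and with UV in SW13+vector, a log2 difference of 0.55, against -2.81 with BRG1 (difference -3.35, SE 0.35, limma adjusted p = 0.00184). JUN had mean signals of 163.5 and 293.4 in SW13+vector (log2 0.84), so that the difference was -2.52 (SE 0.23, limma adjusted p = 0.000845). IER3 had 84.3 and 128.2 there (log2 0.61, difference -2.14, limma adjusted p = 0.00233). In these 3 genes every SW13+BRG1 mock array lay above the SW13+vector mock mean, and the UV effects had opposite signs, of which only those with BRG1 were called. With vector, the rises of JUN and IER3 had limma adjusted p = 0.00473 and 0.0281 and missed a call through the fold limit. NFKBIZ was opposite: it stood at 400.2 and 281.9 in SW13+vector, a log2 difference of -0.51 (interaction 1.97, SE 0.23, limma adjusted p = 0.00278), and after UV both lines had similar mean signals, 281.9 with vector and 284, 284 and 218 on the arrays with BRG1.

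ATF3 and MAFF rose more with BRG1. ATF3 had a log2 difference of 0.97 in SW13+vector (mean signals 37.3 and 71.4), and the interaction was 2.58 (SE 0.43, limma adjusted p = 0.0476). MAFF, at 594.1 and 942.4 in SW13+vector, had an interaction of 1.32 (SE 0.22, limma adjusted p = 0.0476), from a mock mean with vector that lay above all 3 mock arrays with BRG1. Falls that were deeper with BRG1 were those of MAT2A (-1.32 with vector, interaction -1.69), LIN28B (-1.39, interaction -1.74), FBXO5 (-0.11, interaction -1.44), SPDL1 (-0.54, interaction -1.14) and COIL, the scaffold of Cajal bodies (-0.21, interaction -1.20). Several of these calls depended on single arrays. Over the 13 settings that left out 1 array or all arrays numbered 3, the call was lost in 10 for ATF3, 10 for MAFF, 10 for MAT2A, 8 for FBXO5, 6 for COIL, 5 for SPDL1 and 2 for LIN28B, and in none for PNRC1, IER3, JUN and NFKBIZ. GADD45A and PMAIP1, called with BRG1, did not pass the test of the difference (1.18 and 1.28, limma adjusted p = 0.501 and 0.978), and their signals in SW13+vector were low, with means of 55.6 and 71.4 for GADD45A and 13.9 and 17.9 for PMAIP1. CDKN1A had a log2 difference of 1.07 with vector (adjusted p = 0.0504), and HBEGF was called higher in both lines (1.55 with vector).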

How the data were processed

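The 12 samples are single-colour Affymetrix U133 Plus 2.0 arrays of total RNA from SW13+vector and SW13+BRG1 cells, mock treated or given UV, 3 arrays a group. The deposited values are signal intensities on a linear scale for 54675 probe sets, which the authors summarized with MAS under default settings and scaled to a mean target intensity of 125. For MAS, the version is not given in the sources used. No column belongs to another sample (0 columns left out). The number of arrays limits the precision.

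The log2 of each signal was used without another normalization. After the 62 control probe sets were removed, a probe set was kept if its signal reached the array median on at least 3 of 12 arrays. In limma 3.58.1 (R 4.3.3) all 12 arrays entered a single model with a mean for each group, and the prior of the variance followed the mean signal. There was no batch term. The titles give each array an experiment number, and a block on that number within each line was run as an alternative. Benjamini-Hochberg adjustment ran over all tested genes, or over probe sets where probe sets were counted. Calls required both an adjusted p under 0.05 and more than a 2-fold change, and for the interaction (how far the UV effect differed from 1 line to the other) only the adjusted p. In the platform annotation 41097 probe sets have a single gene, 1801 have several and 11777 have none. Symbols were updated by gene identifier through the RefSeq table of GRCh38.p14. The probe set with the highest mean log2 signal over all arrays stood for its gene. On simulated data of 32180 probe sets the fit recovered 48.4% of changes of 1.5 and 84.5% of changes of 2.5 on the log2 scale, with 4 false calls.

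Genes were named by rule: the 15 largest rises and falls without overlap of arrays and with a higher group mean at or above the 75th percentile (9 rises met this), up to 4 called members of each of 39 gene lists, the 5 longest called genes in each direction, genes called with an interaction, and a set of damage response and reference genes whatever their values, 130 genes in all, of which part is printed. The result of 1 list is not reported here. ZNF736, ZNF92, ZNF443, PAXIP1-DT and TOLLIP-DT were chosen after their values were seen. The members and lists were chosen with earlier results of these data known. Alternatives were no filter and a stricter one, other scalings, an added offset of 16 or a floor, the arrays of the 2 treatments in 1 line alone, a replicate block, other gene summaries and thresholds, the methods' Welch test, and leaving out arrays. Gene length over protein-coding genes alone was added after the data were seen.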

Additional observations from a re-analysis of the deposited data

Results flagged for a closer look

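In 11 genes called in SW13+BRG1 cells the UV effect (UV minus mock, log2 signal) differed between the lines by the limma interaction term at an adjusted p under 0.05. The effect was more positive with BRG1 for ATF3 by 2.58, for NFKBIZ by 1.97 and for MAFF by 1.32. It was more negative with BRG1 for PNRC1 (-3.35), JUN (-2.52), IER3 (-2.14), LIN28B (-1.74), MAT2A (-1.69), FBXO5 (-1.44), COIL (-1.20) and SPDL1 (-1.14). PNRC1, JUN and IER3 had effects above 0 with vector and below 0 with BRG1, and NFKBIZ the reverse. JUN held the call on 3 of its 4 probe sets. As a single probe set tested among all probe sets, MAFF, MAT2A and ATF3 were not called. Other differences between the stable lines cannot be told apart from BRG1.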

How the results depend on the processing

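Of 73 genes called after UV in SW13+BRG1 cells and named above, 53 kept their call under every alternative in which they were tested, other than the methods' Welch tests. This includes left-out arrays, and 12 kept it under the Welch tests as well. FOSB was tested in 14 of 15 alternatives. Of the 11 interactions 2, PNRC1 and IER3, were called in every alternative, and 7 were lost in at least 1 setting that left out arrays; JUN and NFKBIZ were lost with the mean over probe sets. Of the called genes named, only PRR16 turned in direction (-0.010 with a floor).

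In SW13+BRG1 cells the genes higher (84) were 141 after quantile normalization, 34 by the hybridization controls, 50 with an offset of 16, 1106 without the fold threshold and 9 by the adjusted Welch test. The genes lower (904) were 1897 by the hybridization controls, 1616 without the fold threshold and 151 by the adjusted Welch test, and 619 after quantile normalization. Of probe sets 183 were higher and 1895 lower: 296 and 1246 after quantile normalization, 85 and 4330 by the hybridization controls, 1637 and 2921 without the fold threshold, and 7 and 130 by the adjusted Welch test, while the unadjusted Welch test gave 325 higher. In SW13+vector the genes higher (91) were 44 by the hybridization controls, 59 with the offset, 766 without the fold threshold and 2 by the adjusted Welch test. The genes lower there (573) were 1074, 1167 and 2 by the hybridization controls, without the fold threshold and by the adjusted Welch test. The interactions (4 positive, 9 negative) were 2 positive without the filter, 1 by the hybridization controls, 2 when every probe set entered the adjustment, 1 and 3 without the trend, 1 and 5 with the mean over probe sets, and 18 negative with a floor.

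In SW13+BRG1 the deviations of mock and UV arrays with the same replicate number correlated at 0.103, 0.0662 and 0.247. Between numbers 1 and 2 the correlations were 0.104 and 0.0859, so these numbers were not told apart. Arrays numbered 3 against those numbered 1 or 2 of the other treatment gave -0.166 to -0.123, so the arrays numbered 3 deviated alike. The main fit had no term for this. The replicate block gave 275 probe sets and 127 genes higher in SW13+BRG1, 141 genes higher in SW13+vector, and 14 positive and 64 negative interactions. Leaving out arrays gave 124 to 293 probe sets higher and 1287 to 2223 lower, 60 to 136 genes higher and 715 to 928 lower, 52 to 143 and 493 to 604 in SW13+vector, and 1 to 38 positive and 3 to 113 negative interactions. The highest of the rising counts and of both interaction counts came without all arrays numbered 3. A group left with 2 arrays was taken to vary like the others.

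The gap in median log2 difference between the longest and shortest deciles (-0.52) was -0.40 after quantile normalization, -0.41 with the offset and -0.65 among genes above the median mock signal, and -0.59 to -0.46 with arrays left out. The percent lower in the ninth decile (12.7%) was 24.9% by the hybridization controls, 22.1% without the fold threshold, 2.97% by the adjusted Welch test and 11.4% to 13.3% with arrays left out. In the sixth decile by starting signal (12.2%) it was 7.18% without the filter, 8.03% after quantile normalization, 25.02% by the hybridization controls, 20.8% without the fold threshold, 1.81% by the adjusted Welch test and 10.8% to 12.8% with arrays left out.

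Among genes without a call over 2-fold, GAPDH turned to -0.027 after quantile normalization and DDB2 to -0.11 by the hybridization controls. SMARCA4 turned to -0.25 by the hybridization controls, -0.10 with the mean over probe sets and -0.19 to -0.01 with arrays left out. EGR1 turned to 0.15 with the mean over probe sets, and ran from -0.54 to 0.52 with arrays left out. The cause of these changes was not tested. The interaction was not run by the Welch tests or in the fit of 1 line alone. Signals near background limit the rises, whose median mock signal was 21.6.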

Other observations

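Of 4921 tested probe sets with no gene in the platform annotation, UV raised 55 (1.12%) and lowered 266 (5.41%) in SW13+BRG1 cells, beside 0.561% and 5.81% of all tested probe sets. Over all tested genes 0.607% were higher and 6.53% lower. Pseudogenes gave 2 higher (0.787%) and 8 lower (3.15%) of 254 tested. Antisense transcripts gave 5 higher (1.36%) and 0 lower of 368, and intergenic RNAs 4 higher (1.6%) and 1 lower (0.4%) of 250.

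Probe sets of 1 gene did not always move together. Of the 904 genes lower, 580 had another tested probe set: for 115 all others were lower as well, for 152 some were, for 310 none was, and for 3 (WDR37, MYNN and EPC1) another probe set was higher. The median of the other probe sets had the same sign in 537 of the 580. Of the 84 genes higher, 26 had another tested probe set, with all others higher for 2, some for 3 and none for 21. Whether these differences come from separate transcript ends or from dim probe sets was not tested.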
